A study of Mus musculus with 5 samples.

Results

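The genes described here are the 10 transcription factor genes most closely tied to naive pluripotency in the mouse: *Pou5f1*, *Nanog*, *Sox2*, *Klf2*, *Klf4*, *Klf5*, *Esrrb*, *Tbx3*, *Tfcp2l1* and *Prdm14*. They are 10 of 21755 protein-coding genes on chromosomes 1 to 19 and X and were taken by name. The series is a ChIP-seq study of mouse embryonic stem cells (mESCs) with 5 samples, of which 3 gave a peak list and 2 are labelled as inputs. All samples are female mESCs of a hybrid 129/Sv-Cast/Ei background. The labels name V5 as the antibody of every sample, the inputs included, so whether those are unprecipitated chromatin or V5 ChIP of untagged cells cannot be told from them. The study's methods name control WT cells in the RNF12 ChIP-seq beside the tagged cells, without saying which sample they gave. The REX1 list came from cells of WT genotype carrying FLAG-V5-REX1. The RNF12 WT list came from Rlim+/- cells carrying FLAG-V5-RNF12 WT, and the RNF12 H569A,C572A list from Rlim+/- cells carrying the same protein with both substitutions in its RING domain, which the study uses as a catalytically inactive form. The RNF12 proteins were expressed from vectors with the strong CAG promoter after drug selection, and their level against the endogenous protein cannot be read from these lists. These cells received the proteasome inhibitor MG132 at 15 µM for 3 h before crosslinking with 2 mM DSG and 1% formaldehyde. For REX1 neither MG132 nor crosslinking is given, and the study's text places REX1 ChIP-seq in earlier work than that of RNF12. Between the REX1 and RNF12 lists, experiment and protein therefore cannot be told apart. Both inputs are labelled WT, 1 for REX1 and 1 for RNF12, and which input underlies each list is not given in the sources used here.

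A peak was assigned to a gene when its summit lay in the gene body or within 20 kb of it. This gave 287 of 291776 deposited peaks, namely 129 of 96050 in the REX1 list, 82 of 97602 in that of RNF12 WT and 76 of 98124 in that of the mutant form, RNF12 H569A,C572A. Each list rests on 1 library, so there is no replicate error and no test between lists. The lists hold no read totals and no expression values, so depth is unknown and the pluripotent state of the cells could not be checked from them.

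Naive pluripotency is kept by a network of transcription factors that bind one another's genes at promoters and at enhancers some kilobases away. OCT4, the product of *Pou5f1*, and SOX2 bind side by side on a composite site, and NANOG joins them. KLF2, KLF4 and KLF5 bind GC-rich CACCC-type sites, ESRRB is an orphan nuclear receptor, TFCP2L1 belongs to the CP2 family, TBX3 is a T-box factor and PRDM14 represses lineage genes and DNA methylation. REX1, a zinc-finger protein of the YY1 family, is a classic marker of the naive state. RNF12, also named RLIM, is an X-linked E3 ubiquitin ligase that marks REX1 for degradation.

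At these genes the highest REX1 peak by fold enrichment, at *Pou5f1*, and the highest RNF12 H569A,C572A peak, at *Klf4*, are not among the sequences printed next. The printed sequences are examples that hold a searched string, chosen after the values were seen. Each is the mm10 plus strand over 101 bases centred on a peak summit, read from the RefSeq copy of GRCm38. Capitals mark a searched string, which on the minus strand appears as its reverse complement, and all 8 windows lie outside annotated UTRs. The first pair holds the SOX-POU string TTGTNATGC at the *Pou5f1* and *Nanog* 5′ flanks, and the next holds it in an intron of *Nanog*.
Pou5f1, REX1 summit, chr17:35504003-35504103: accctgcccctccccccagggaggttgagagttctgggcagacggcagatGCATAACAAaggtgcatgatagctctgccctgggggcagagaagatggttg
Nanog, REX1 summit, chr6:122707388-122707488: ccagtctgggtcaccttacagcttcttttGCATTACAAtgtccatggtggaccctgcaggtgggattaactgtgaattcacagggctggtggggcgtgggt
Nanog, RNF12 H569A,C572A summit, chr6:122708542-122708642: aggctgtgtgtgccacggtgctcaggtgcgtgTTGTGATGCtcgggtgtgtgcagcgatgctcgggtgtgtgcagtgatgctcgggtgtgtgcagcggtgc
The KLF string GGGNGTGGC lies downstream of *Klf4* at a site of all 3 lists, and just before the *Tfcp2l1* start.
Klf4, RNF12 WT summit, chr4:55514897-55514997: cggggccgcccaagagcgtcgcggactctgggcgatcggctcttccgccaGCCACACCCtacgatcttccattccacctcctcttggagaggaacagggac
Tfcp2l1, RNF12 WT summit, chr1:118627815-118627915: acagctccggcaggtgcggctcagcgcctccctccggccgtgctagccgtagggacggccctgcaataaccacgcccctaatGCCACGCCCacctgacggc
The ESRRB string TCAAGGTCA lies in *Esrrb* itself, and the REX1-family string ATGGCNNC in an intron of *Pou5f1*. Upstream of *Prdm14* the REX1-family string overlaps the YY1 core AAGATGGC.
Esrrb, REX1 summit, chr12:86501652-86501752: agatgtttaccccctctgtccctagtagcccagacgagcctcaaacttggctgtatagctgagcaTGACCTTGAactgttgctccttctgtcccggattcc
Pou5f1, REX1 summit, chr17:35506523-35506623: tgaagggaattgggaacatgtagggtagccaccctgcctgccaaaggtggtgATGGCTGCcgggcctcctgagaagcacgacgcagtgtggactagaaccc
Prdm14, REX1 summit, chr1:13133708-13133808: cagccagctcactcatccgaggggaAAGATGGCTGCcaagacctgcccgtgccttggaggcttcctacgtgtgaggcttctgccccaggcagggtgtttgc

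All 10 genes had peaks in every list, and the lists differed at them mainly in distal peaks. A promoter peak is one with its summit within 1 kb of an annotated transcription start site (TSS) of the gene. A distal peak lies beyond 1 kb of every TSS, and a summit near the TSS of another gene was counted apart. REX1 had 31 promoter and 90 distal peaks, RNF12 WT 33 and 40, and RNF12 H569A,C572A 28 and 37. The remaining 8, 9 and 11 peaks lay at promoters of other genes. *Esrrb*, whose window of 200.512 kb is the longest, held 30 of the 90 distal REX1 peaks. Without *Esrrb* the distal counts were 60, 37 and 30.

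**Figure D1:**
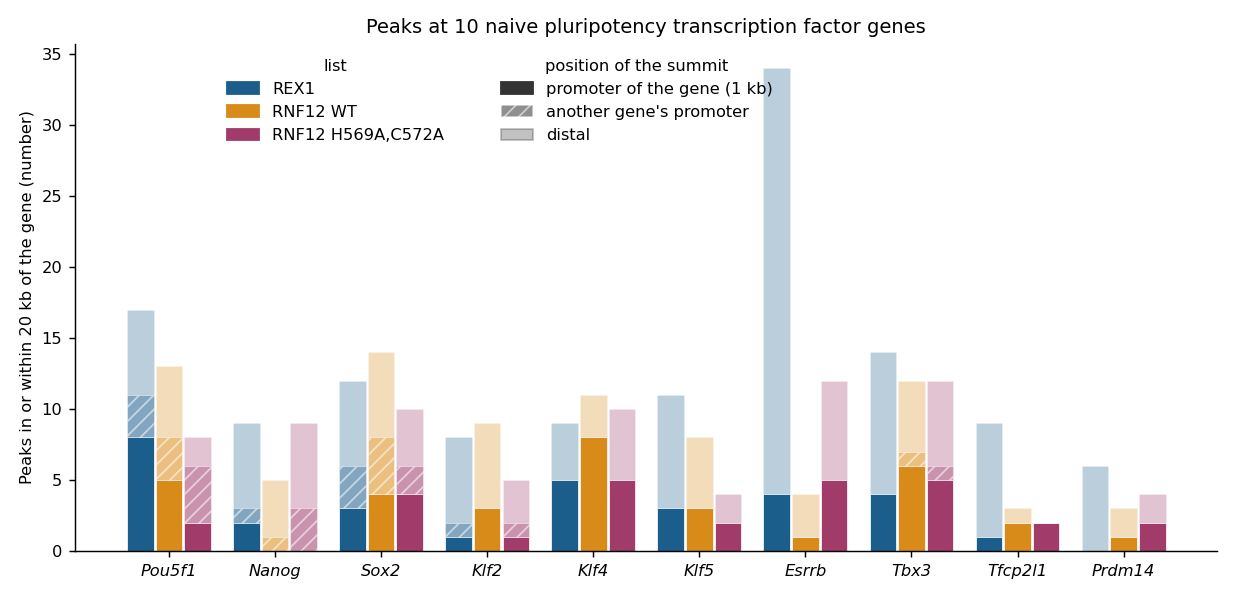
Number of peaks (y axis) at each of the 10 genes (x axis) in each of the lists (REX1, RNF12 WT, and H569A,C572A for the mutant form), 1 library each, split by the position of the summit. REX1 has the tallest bar at Esrrb, with 34 peaks against 4 and 12, while at Sox2, Klf2 and Klf4 the RNF12 WT bar is the tallest.

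Taken as a group, the windows held more peaks per length than the mean gene window. Per 100 kb of window the 10 genes together had 18.9 REX1, 11.99 RNF12 WT and 11.1 RNF12 H569A,C572A peaks. The mean over all protein-coding gene windows was 7.14, 7.69 and 6.30. Single genes departed from this. Against a median over all genes of 6.41 RNF12 WT peaks per 100 kb, *Esrrb* had 1.99, *Tfcp2l1* 3.09 and *Prdm14* 5.59. In the mutant list *Tfcp2l1* had 2.06 against a median of 5.74. A promoter peak was present at 9 of the 10 genes in each list. Over all protein-coding genes the share was 67.5% in the REX1 list, 68.9% with RNF12 WT and 67.7% with RNF12 H569A,C572A. Among the top 20000 peaks by −log10 q, 5, 3 and 4 of the 10 genes had one, against 35.3%, 40.4% and 29.2%, so that RNF12 WT was below the share of all genes. At 8 of the 10 the promoter had a peak in all 3 lists, against 60.7% of all genes. The exceptions were *Prdm14*, which had no REX1 promoter peak, and *Nanog*, which had none for either RNF12 form.

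Several promoters held more than 1 peak. At least 3 promoter peaks were found at 6 of 10 genes for REX1 and 6 of 10 for RNF12 WT, against 21.9% and 25.4% of all genes. For RNF12 H569A,C572A it was 4 of 10 against 14.4%. The number of annotated TSSs bears on such counts, and the 10 genes have 1 to 6, with a median of 3 over all genes. With the 5′ end of the gene body as the only TSS, 8 of 10 genes had a promoter peak in each list, against 61.9%, 63.4% and 62.5% of all genes for REX1, RNF12 WT and the mutant form. A distal peak was present at 10 of 10 genes for REX1 and for RNF12 WT, where 74% and 73.4% of all genes had one, and at 9 of 10 for RNF12 H569A,C572A, where 79.8% had one.

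**Figure D2:**
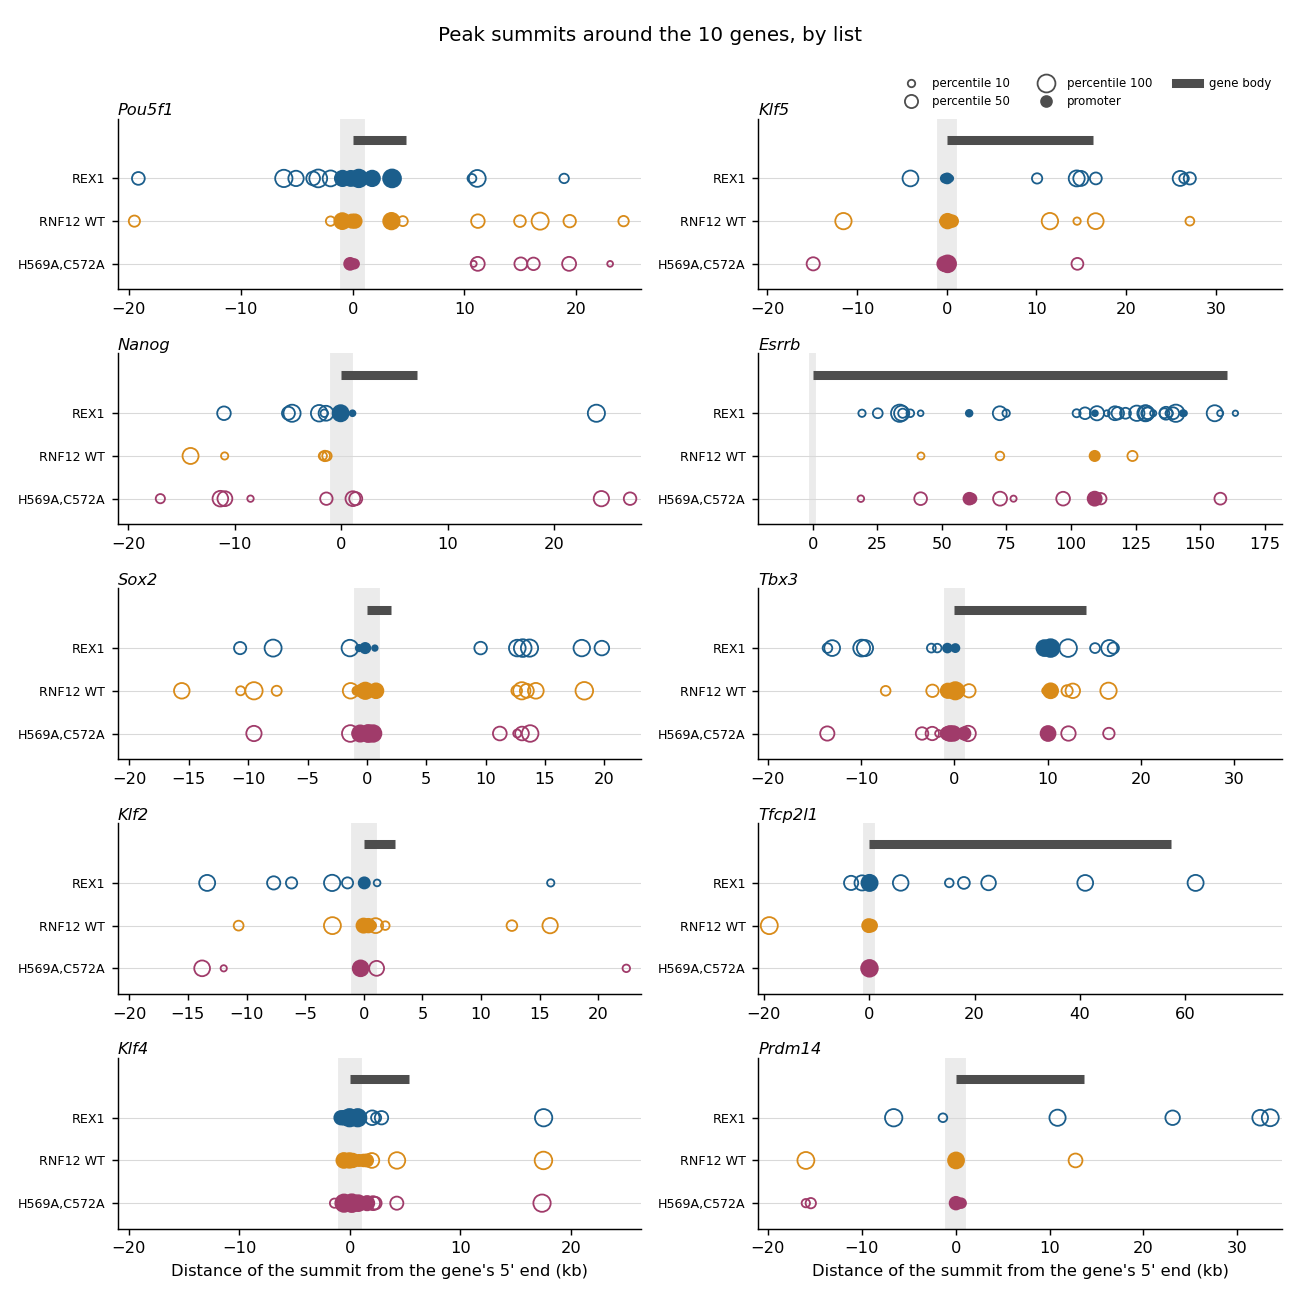
Position of each peak summit relative to the 5′ end of each gene (x axis, kb, in the direction of transcription), in 1 row per list. Larger circles are peaks of higher percentile within their list, filled circles are promoter peaks, the dark bar is the gene body and the grey band spans 1 kb either side of the 5′ end. The circle near 17.5 kb at Klf4 is large in all 3 rows, and Prdm14 has no REX1 circle within the grey band.

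The overlap between lists was counted at promoters and at distal sites separately. A REX1 peak overlapped 23 of 33 RNF12 WT promoter peaks (69.7%, 95% Wilson interval 52.7 to 82.6) by at least 1 bp. The share was 61.3% over all RNF12 WT peaks within 1 kb of a TSS, which is inside that interval. For RNF12 H569A,C572A it was 18 of 28 (64.3%, 45.8 to 79.3) against 64.1%. In the other direction, 21 of 31 REX1 promoter peaks (67.7%, 50.1 to 81.4) overlapped RNF12 WT, against 63.1%, and 20 of 31 (64.5%, 46.9 to 78.9) overlapped the mutant form, against 65.7%. Among the top 20000 peaks of each list by −log10 q, 2 of 10 REX1 promoter peaks (20%, 5.67 to 51.0) met each RNF12 form, against 47.2% and 42.9% of all REX1 peaks near a TSS. All such intervals cover counting error only, and peaks of 1 gene share their locus.

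Away from promoters the overlap of RNF12 with REX1 at the 10 genes was above the share over all genes. For both RNF12 forms most of the overlapping peaks lay inside the genes or within 5 kb of them. The share over all genes was not computed for that shorter distance. A REX1 peak overlapped 21 of 40 distal RNF12 WT peaks (52.5%, 37.5 to 67.1). Over all RNF12 WT peaks beyond 1 kb of a TSS and within 20 kb of a protein-coding gene the share was 26.7%. For RNF12 H569A,C572A the count was 17 of 37 (45.9%, 31.0 to 61.6) against 22.1%. Both intervals lie above the share over all genes, but among peaks with −log10 q of at least 5 that of RNF12 WT, 7 of 20 (18.1 to 56.7), took in the share of 22.0%. REX1 peaks were also denser here, as given above, and the part of that density in the overlap was not tested. The mutant peaks compared differed in repeats too. A base masked as repeat lay in the window around the summit for 26.3% of mutant peaks at these genes, against 60.9% of all mutant peaks. For RNF12 WT it was 35.4% against 34.2%. These values cover promoter and distal peaks together, and the part of repeats in the overlap was not tested. Without *Esrrb* the shares that overlapped REX1 were 51.4% and 46.7%. The *Sox2*, *Klf2*, *Klf5*, *Nanog* and *Tbx3* windows gave 3 or 4 of the 21 RNF12 WT peaks each. At *Tbx3* 5 of the 6 distal mutant peaks overlapped REX1.

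Seen from REX1, the intervals of the distal overlap took in the share over all genes. Of 90 distal REX1 peaks, 21 (23.3%, 15.8 to 33.1) met RNF12 WT and 16 (17.8%, 11.2 to 26.9) met the mutant form, against 25.5% and 21.7% of distal REX1 peaks over all genes. Without *Esrrb* the shares were 31.7% and 21.7%. The first was above that of all genes, but no interval was computed for these shares. The 2 RNF12 lists met each other at promoters in 29 of 33 RNF12 WT peaks (87.9%, 72.7 to 95.2; all genes 73%) and 19 of 28 mutant peaks (67.9%, 49.3 to 82.1; all genes 72.3%). At distal sites it was 16 of 40 (40%, 26.3 to 55.4) and 17 of 37 (45.9%, 31.0 to 61.6), and both lists had a share of 32.6% over all genes. Among the top 20000 peaks of each list by −log10 q, few promoter peaks were left, and 0 of 5 RNF12 WT peaks (interval 0 to 43.4) and 0 of 6 mutant peaks (0 to 39.0) met the other form. The shares over all peaks near a TSS were then 43.6% and 61.1%.

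**Figure D3:**
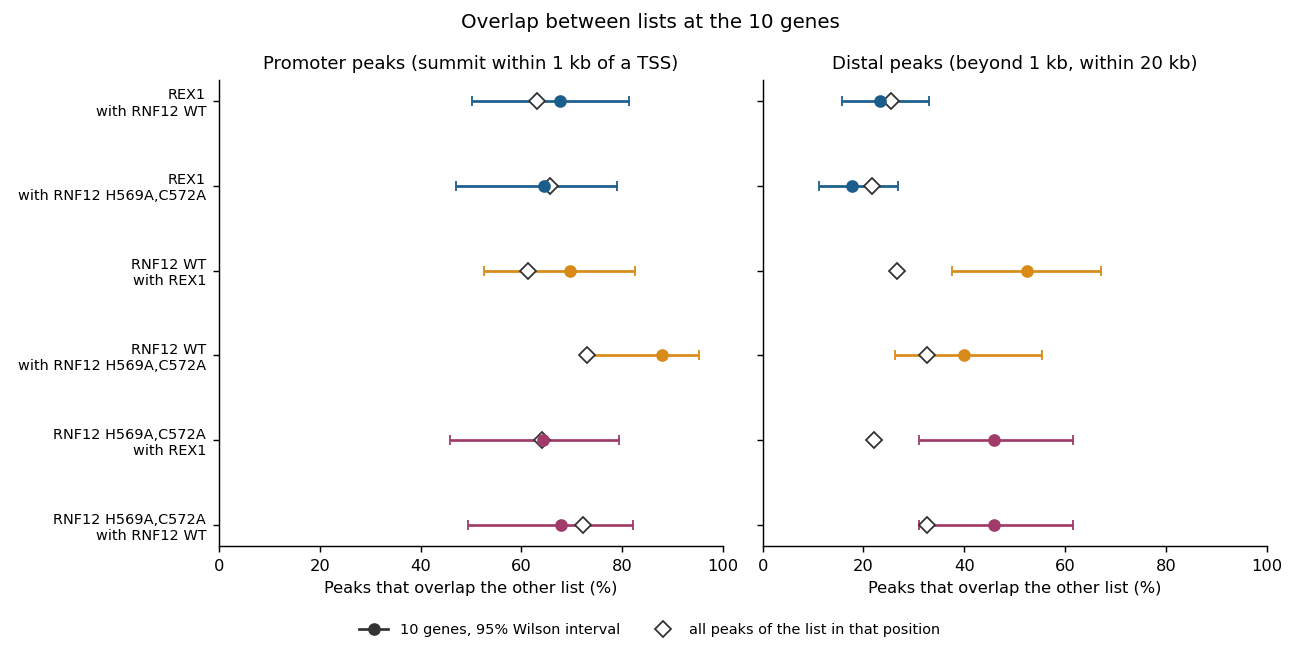
Percent of peaks at the 10 genes that overlap a peak of another list by at least 1 bp (filled circles, bars are 95% Wilson intervals for counting error), with the share over all peaks of that list in the same position (open diamonds), for promoter peaks on the left and distal peaks on the right. The diamonds for RNF12 WT with REX1 and RNF12 H569A,C572A with REX1 fall below the intervals in the distal panel, at 26.7% and 22.1%.

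Merging overlapping peaks gave 175 sites, of which 29 were in all 3 lists. At promoters 14 of 36 sites were in all 3 lists, and 11 of 123 at distal places. Over all genes the shares were 33.5% of sites within 1 kb of a TSS and 5.77% of sites beyond it within 20 kb of a protein-coding gene. REX1 alone accounted for 66 of the 123 distal sites, of which 27 lay in the *Esrrb* window, and for 7 of the 36 promoter sites. The shares over all genes were 30.3% and 19.8%. Sites of all 3 lists were found at 9 of the 10 genes. *Sox2* and *Tbx3* had 6 each, *Klf4* 5, *Klf5* and *Esrrb* 3 each, *Pou5f1* and *Nanog* 2 each, *Klf2* and *Tfcp2l1* 1 each, and *Prdm14* had none.

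Peak strength was compared by rank within each list only, because fold enrichments depend on the control and depth of each list. The percentile runs to 100 for the highest fold enrichment of the list. Promoter peaks at the 10 genes had a median percentile of 27.0 in the REX1 list, 51.2 with RNF12 WT and 59.5 with the mutant form, where all peaks within 1 kb of a TSS had 52.2, 55.3 and 61.8. The low REX1 median depended on the setting. It was 53.4 without *Esrrb*, whose 4 promoter peaks stood at percentile 6.11 or lower, 50.3 among peaks with −log10 q of at least 5 and 44.7 among the top 20000. With peaks ordered by −log10 q instead it was 56.5, against 56.1 for all peaks near a TSS, and the 4 *Esrrb* peaks stood at percentiles from 10.3 to 60.9. The RNF12 WT promoter median was 26.6 over 19 peaks with −log10 q of at least 5, against 53.2, and 16.9 over 5 peaks of the top 20000, against 52.7. Distal peaks had medians of 56.0, 49.9 and 44.8, against 49.3, 49.0 and 40.6 for distal peaks at all protein-coding genes. The REX1 distal median moved with the setting as well, to 65.4 without *Esrrb*, 47.6 with −log10 q of at least 5, against 49.3, and 29.3 over 26 peaks of the top 20000, against 52.0. With peaks ordered by −log10 q the REX1 distal median was 62.9, against 45.5. That of RNF12 WT was 62.8 without *Esrrb*, and 51.9 by −log10 q, against 44.9. Above percentile 90 were 16 of 129 REX1 peaks (12.4%, 7.78 to 19.2), 6 of 82 for RNF12 WT (7.32%, 3.40 to 15.1) and 4 of 76 for the mutant form (5.26%, 2.07 to 12.8).

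**Figure D4:**
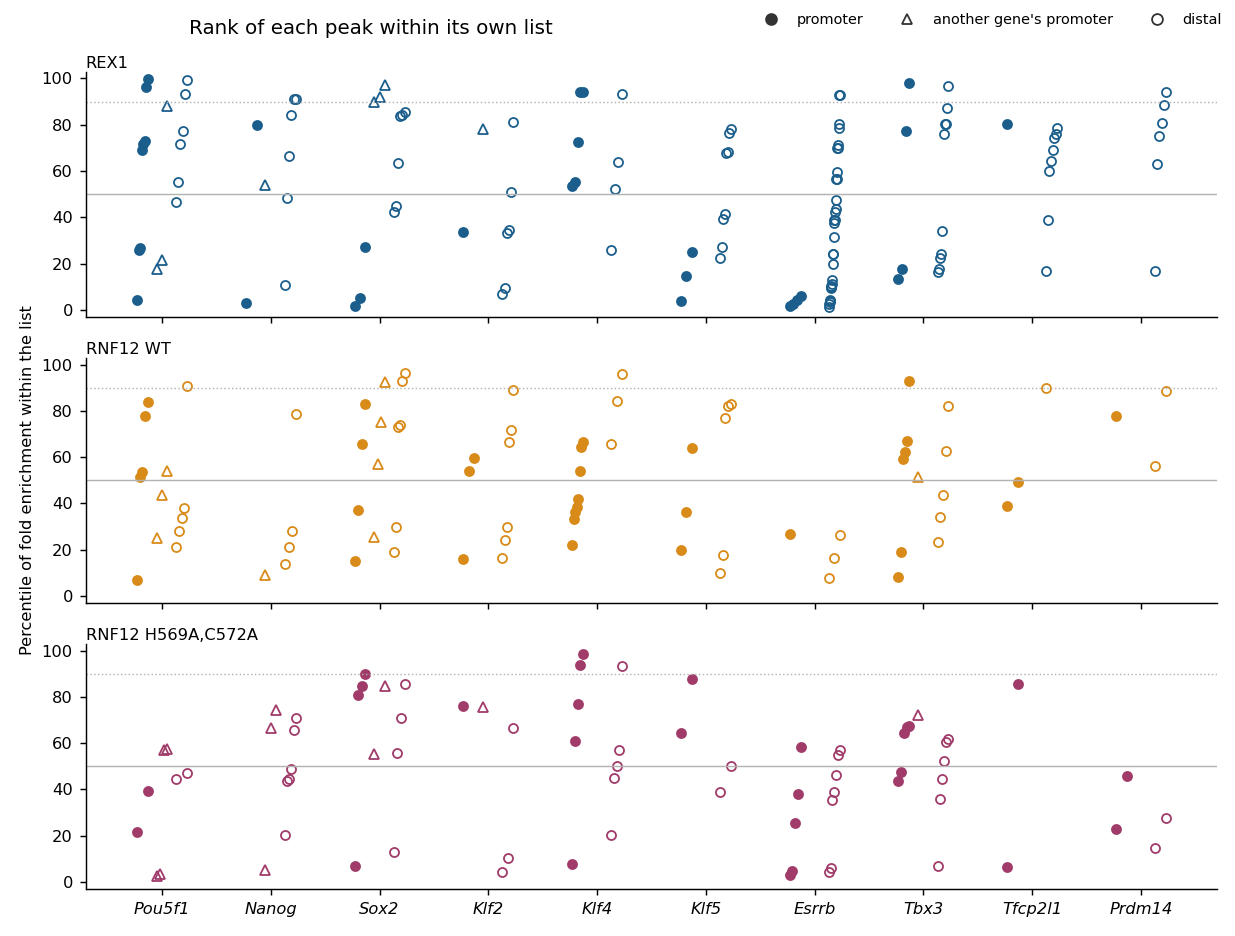
Percentile of the fold enrichment of each peak within its own list (y axis, 100 is the highest) for the 10 genes (x axis), in 1 panel per list, with lines at 50 and 90. Pou5f1 holds the highest REX1 peak at percentile 99.8 and Klf4 the highest RNF12 H569A,C572A peak at 98.3, while the 4 RNF12 WT peaks at Esrrb all lie at 26.7 or lower. By −log10 q, which is not drawn, those 4 range from 8.33 to 61.7.

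*Pou5f1*, which encodes OCT4, lies at chr17:35506018-35510772 on the plus strand (ENSMUSG00000024406.16) and had the strongest REX1 peaks of the 10 genes. REX1 had 17 peaks here, RNF12 WT 13 and RNF12 H569A,C572A 8. The REX1 density of 38.0 per 100 kb was reached by 1.49% of protein-coding genes, and 8 of the 17 were promoter peaks. The top peak, chr17:35509336-35509670, had a fold enrichment of 19.7 at percentile 99.8 and ranked 229 in the list. It lies in an intron 3525 bp into the gene and counts as a promoter peak only through the start of an internal *Pou5f1* transcript. RNF12 WT had a peak at the same place at percentile 83.7, and the mutant form had none.

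The next was chr17:35502859-35503045, 3070 bp upstream, with a fold enrichment of 15.0 at percentile 99.3 and no RNF12 peak. REX1 also stood at percentile 93.2 at 6146 bp upstream and at 96.1 at 555 bp into the gene, in an intron, with the REX1-family string 2 bases past the summit. The SOX-POU string printed above lay under a REX1 summit 1965 bp upstream, at percentile 77.5, and under an RNF12 WT summit 1969 bp upstream, at percentile 21.3. This stretch is the distal enhancer of the gene, where OCT4 and SOX2 are known to bind. RNF12 H569A,C572A had no peak there, and its 2 promoter peaks, 221 bp upstream and 150 bp inside the gene, stood at percentiles 39.3 and 21.6. Both belong to a promoter site of all 3 lists, chr17:35505735-35506728, where REX1 reached percentile 96.1 and RNF12 WT 53.3. The 5 RNF12 WT promoter peaks ranged from percentile 6.81 to 83.7. The top distal peaks of both RNF12 forms lay in the neighbouring *Cchcr1*, at percentile 90.7 for RNF12 WT and 47.2 for the mutant form. A site at the *Cchcr1* promoter in the same window was in all 3 lists, at percentiles 87.9, 53.9 and 57.1 for REX1, RNF12 WT and the mutant form.

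*Nanog*, a homeobox factor at chr6:122707489-122714633 on the plus strand (ENSMUSG00000012396.12), was the only gene of the 10 with no RNF12 promoter peak. The REX1 peak chr6:122707359-122707551 had its summit 51 bp before the TSS, over the SOX-POU string printed above, with a fold enrichment of 5.89 at percentile 80.0. Neither RNF12 list overlapped it. A second REX1 peak 988 bp from a *Nanog* TSS stood at percentile 2.74, and its window holds the SOX-POU string of the *Nanog* intron. RNF12 H569A,C572A had a peak on the same string at percentile 65.9, with its summit 1024 bp from that TSS. That is just past the limit of 1 kb, so the absence of a mutant promoter peak depends on the limit. The printed sequence shows that this string sits in a row of near-repeats. Upstream, a site at chr6:122706012-122706243 was in all 3 lists, 1421, 1335 and 1389 bp from the TSS for REX1, RNF12 WT and the mutant form. It stood at percentiles 66.7, 21.3 and 43.6. The strongest distal REX1 peaks, at percentiles 91.3 and 90.9, lay 23896 bp from the nearest *Nanog* TSS, in a coding exon of *Slc2a3*, and 4614 bp upstream, and neither met an RNF12 peak. The highest distal peak was at percentile 78.7 for RNF12 WT, 14149 bp upstream, and 70.9 for the mutant form, in an intron of *Slc2a3*. Of the 9 mutant peaks at *Nanog*, 6 had a 32-base word at the summit found more than 10 times in the genome. These include all 3 at the noncoding neighbours *Gm10420* and *Gm10224*, 1 of which was a site of all 3 lists, and their place in the genome is uncertain.

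*Sox2*, which encodes the partner of OCT4, is a gene of 1 TSS at chr3:34650405-34652461 on the plus strand (ENSMUSG00000074637.7), inside the noncoding gene *Sox2ot*. It had 12, 14 and 10 peaks in the REX1, RNF12 WT and mutant lists, and 9 of the REX1 peaks met RNF12 WT. Over the promoter REX1 ranked low by fold enrichment. Its 3 promoter peaks stood at percentiles 1.58, 5.11 and 27.0 (22.8, 1.47 and 54.4 by −log10 q), the 4 of RNF12 WT between 15.1 and 82.8, and the 4 of the mutant form between 7.02 and 90.001. The mutant peaks chr3:34650215-34650726 and chr3:34650780-34651357 covered the TSS and the coding exon at percentiles 90.001 and 84.9. At 1442 bp upstream, REX1 was at percentile 84.3 on a site of all 3 lists where RNF12 WT had 73.2 and the mutant form 85.4.

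REX1 ranked high downstream of *Sox2* instead. The peak chr3:34663317-34663594, 13115 bp from the *Sox2* TSS and within 1 kb of the noncoding *Gm42693*, had a fold enrichment of 10.5 at percentile 97.3. RNF12 WT was at percentile 92.5 and the mutant form at 55.2 on this site. Beside it, 13686 bp from the TSS, REX1 was at percentile 92.1 and at 12659 bp at 85.7, both on sites of all 3 lists. The top RNF12 WT peak of the 10 genes by percentile, 96.4, was 18301 bp downstream at chr3:34668644-34668759 and overlapped a REX1 peak at 83.8, with no mutant peak. The highest distal mutant peak was the one 1404 bp upstream.

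The 3 KLF genes differed from one another. *Klf4*, at chr4:55527143-55532466 on the minus strand (ENSMUSG00000003032.8), was the most uniformly shared. It had 9 REX1, 11 RNF12 WT and 10 mutant peaks, and all 11 RNF12 WT peaks overlapped the mutant list. The mutant peak chr4:55532118-55532626, 184 bp inside the gene in a UTR, had a fold enrichment of 26.4 at percentile 98.3, the highest of that form at the 10 genes. The mutant peak 522 bp upstream followed at percentile 93.8. REX1 was at percentiles 94.2 and 94.1 on promoter peaks 21 bp upstream and 23 bp from an internal TSS. The 8 RNF12 WT promoter peaks stood lower, between percentiles 22.2 and 66.5.

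Downstream of *Klf4*, at chr4:55514783-55515207, lay the 1 site above percentile 90 in all 3 lists. REX1 had percentile 93.2, RNF12 WT 96.0 and RNF12 H569A,C572A 93.4, and it was the highest distal peak of each list at this gene. The REX1 and RNF12 WT summits lay 16839 and 16823 bp from the nearest *Klf4* TSS, and the KLF string printed above is in both windows. The mutant summit lay 16695 bp away, and its window has none of the strings searched. The summit word occurs once in the genome in all 3. A site in the *Klf4* coding exons, chr4:55530030-55530773, was also in all 3 lists, at percentiles 63.9, 65.6 and 57.1.

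*Klf2*, at chr8:72319033-72321656 on the plus strand (ENSMUSG00000055148.7), had 8, 9 and 5 peaks and only 1 site of all 3 lists, which runs over the promoter at chr8:72318869-72320275. The REX1 promoter peak was 39 bp inside the gene at percentile 33.5, and the RNF12 WT peaks at 22 bp upstream, 382 bp and 680 bp inside stood at 59.5, 53.9 and 16.1. In the mutant list a peak of 1328 bp covers this stretch with its summit 1092 bp inside the gene, at percentile 66.6, so it counts as distal. A separate mutant peak 274 bp upstream stood at 76.2. By −log10 q the REX1 promoter peak stood at 68.99 and the RNF12 WT promoter peaks between 13.8 and 83.9. The mutant peak over this stretch then stood at 69.6 and the one upstream at 69.8. The top distal peaks of REX1 and RNF12 WT overlapped at 2703 and 2678 bp upstream, at percentiles 81.3 and 88.9, with no mutant peak.

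*Klf5*, at chr14:99298691-99315036 on the plus strand (ENSMUSG00000005148.8), had 11, 8 and 4 peaks. The ranks at its promoter differed between the lists by fold enrichment. The 3 REX1 promoter peaks stood at percentiles 14.6, 25.0 and 3.68, those of RNF12 WT at 19.8, 63.8 and 36.2, and the 2 of the mutant form at 64.3 and 87.6. By −log10 q the REX1 peaks stood at 43.4, 65.6 and 14.7 and the mutant peaks at 63.8 and 85.0. Both promoter sites were in all 3 lists. The third such site lies in a coding exon at chr14:99313031-99313385 with percentiles 78.4, 9.69 and 39.0, and holds the top distal REX1 peak. The top distal RNF12 WT peak, 11048 bp from the nearest TSS in an intron, was at 82.8 and met no other list. The top distal mutant peak, at 50.1 and 14888 bp upstream, had a summit word with 3902 copies in the genome. A REX1 peak 4042 bp upstream at percentile 76.6 held the REX1-family and YY1 strings and met no RNF12 peak.

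*Esrrb*, the orphan nuclear receptor gene at chr12:86361117-86521628 on the plus strand (ENSMUSG00000021255.17), had 34 REX1 peaks but 4 RNF12 WT and 12 mutant peaks. Chromosome 12 as a whole held 6.15% of REX1 peaks, 2.35% of RNF12 WT peaks and 4.44% of mutant peaks, and the part of this in the *Esrrb* counts was not tested. The REX1 peaks lie through the introns over most of the gene. The highest stood at percentiles 92.97 and 92.8, at chr12 summits 86394797 and 86501702. The second carries the ESRRB string printed above, which ESRRB itself is known to bind. The 4 REX1 promoter peaks, all at internal TSSs, stood between percentiles 1.69 and 6.11, and no list had a peak within 1 kb of the annotated 5′ end. A promoter site at chr12:86470051-86470557 was in all 3 lists at percentiles 2.37, 26.7 and 58.2. By −log10 q these peaks stood at 60.9, 61.7 and 62.0. Of the 2 intron sites in all 3 lists, chr12:86433485-86433718 had percentiles 56.7, 16.3 and 57.1, and chr12:86402822-86403169 had 2.35, 7.88 and 46.2. The highest distal RNF12 WT peak stood at 26.1, or 45.8 by −log10 q. The other mutant promoter peaks stood between 2.83 and 38.2, or 7.16 and 62.5 by −log10 q. Of the 12 mutant peaks 2 had a summit word of over 10 copies.

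*Tbx3*, at chr5:119670669-119684724 on the plus strand (ENSMUSG00000018604.18), had 14, 12 and 12 peaks and, with *Sox2*, the most sites of all 3 lists. At its 5′ end REX1 had percentiles of 17.5 at 751 bp upstream and 13.3 at 90 bp from a TSS, or 24.3 and 42.7 by −log10 q. RNF12 WT stood at 92.8 on the second of these sites and at 62.0 on the first, and the mutant form at 64.3 and 47.4. Further promoter peaks of RNF12 WT stood at 18.99, 59.3 and 8.25, and of the mutant form at 67.3 and 43.6. Inside the gene the order turned. REX1 had a fold enrichment of 11.3 at percentile 97.8 in a coding exon at chr5:119680857-119681149, next to an internal TSS, and 10.2 at percentile 96.9 in another coding exon at chr5:119682680-119682975. RNF12 WT was at 66.9 and 34.1 on those sites and the mutant form at 66.9 and 62.0. Both REX1 windows hold the REX1-family string. Further downstream, in the noncoding *Tbx3os2*, a site of all 3 lists had percentiles 80.2, 82.1 and 35.8 and was the top distal RNF12 WT peak. The site 2470 bp upstream in all 3 lists had 17.7, 43.6 and 52.1.

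*Tfcp2l1*, at chr1:118627945-118685168 on the plus strand (ENSMUSG00000026380.10), was bound by RNF12 at little but its promoter. The mutant form had 2 peaks, both at the promoter, and RNF12 WT 2 there and 1 in the neighbouring *Clasp1*, at percentile 89.9. The shared promoter site had REX1 at percentile 80.1, RNF12 WT at 49.1 and the mutant form at 85.7, with summits 75, 80 and 64 bp from the TSS. All 3 summit windows hold the KLF string. The second RNF12 promoter site, 376 bp into the gene for RNF12 WT and 435 bp for the mutant form, stood at 39.1 and 6.41. The other 8 REX1 peaks were distal, between percentiles 16.8 and 78.6, and none met an RNF12 peak. Of these, 3 held the REX1-family string.

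*Prdm14*, at chr1:13113457-13127163 on the minus strand (ENSMUSG00000042414.7), was the gene at which REX1 and RNF12 did not meet at all. Its 6 REX1 peaks were all distal, the nearest 1352 bp upstream of the TSS at percentile 16.8. The highest, chr1:13133661-13133840 at 6595 bp upstream, had a fold enrichment of 8.37 at percentile 94.0 and holds the REX1-family and YY1 strings printed above. RNF12 WT and the mutant form shared a promoter site 45 and 35 bp inside the gene, at percentiles 77.7 and 45.6, and a distal site in an intron of *Ncoa2*, at 88.6 and 14.9. The mutant form had another promoter peak 587 bp inside the gene, at 22.9, and its top distal peak, in the UTR of *Ncoa2*, stood at 27.7.

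Strings known for these factors were counted within 50 bp of each summit, on both strands, beside the share over all peaks of the list. A match is a description of the letters and not of bound protein. The REX1-family string was at 24 of 129 REX1 peaks (18.6%, 12.8 to 26.2), against 20.1% of all REX1 peaks. It was at 4 of 82 RNF12 WT peaks (4.88%, 1.91 to 11.9), against 9.10%, and at 3 of 76 mutant peaks (3.95%, 1.35 to 10.97), against 6.79%. The SOX-POU string was at 3 of 129 REX1 peaks (2.33%, 0.794 to 6.61), against 0.202% of all REX1 peaks, namely the *Pou5f1* enhancer, the *Nanog* promoter and the *Nanog* intron. It was at 1 RNF12 WT peak and 1 mutant peak, against 0.0946% and 0.0671% of all peaks of those lists. The KLF string was at 8 of 129 REX1 peaks (6.20%, 3.18 to 11.8), against 2.31%. For RNF12 WT it was at 3 of 82 (3.66%, 1.25 to 10.2), against 2.31%, and for the mutant form at 5 of 76 (6.58%, 2.84 to 14.5), against 3.03%. The YY1 core was at 2 REX1 peaks and the ESRRB string at 2, against 5.65% and 0.547% of all REX1 peaks, and neither was at an RNF12 peak here. Over all RNF12 WT and mutant peaks the YY1 core was at 1.82% and 1.70% and the ESRRB string at 0.134% and 0.314%. The octamer ATGCAAAT was at 1 REX1 peak, the STAT string TTCCNGGAA at 2 and the TFCP2L1 string, CCAG, 6 bases and CCAG, at 3, against 0.288%, 0.271% and 1.66% of all REX1 peaks. None of these strings was at an RNF12 peak here. Over all RNF12 WT and mutant peaks the octamer was at 0.125% and 0.0816% and the STAT string at 0.188% and 0.0878%. The TFCP2L1 string was at 2.21% and 1.32%. The PRDM14 string GGTCTCTAA was at no summit of the 10 genes, against 0.0386%, 0.0278% and 0.00929% of all REX1, RNF12 WT and mutant peaks. Of the 129 REX1 peaks, 90 had no base masked as repeat in the window. Among these the REX1-family string was at 18, the KLF string at 7, the SOX-POU string at 1 and the ESRRB string at 0.

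Other genes of the same network, and genes of primed or early differentiating cells, give a scale for these counts. Of 20 further network genes, 18 had a REX1, 15 an RNF12 WT and 16 a mutant promoter peak, and 14 had all 3. Over all genes the shares were 67.5%, 68.9%, 67.7% and 60.7%. *Sall4*, a zinc-finger factor of the stem cell network, had 6, 6 and 7 promoter peaks and *Mybl2* 8, 3 and 2, while *Dppa3* had none in any list and *Dppa4* 1, in the mutant list. At least 3 promoter peaks were found at 7, 9 and 2 of the 20, against 21.9%, 25.4% and 14.4% of all genes. Of 16 primed and early lineage genes, 16, 15 and 16 had a promoter peak, and 15 had all 3. At 10, 11 and 8 of these there were at least 3. *Otx2*, a homeobox gene that rises on exit from the naive state, had 8, 6 and 6, while the endoderm gene *Gata4* had 1 in each and *Gsc* 2, 0 and 1. The median number of peaks per 100 kb of window was 19.3, 17.7 and 14.8 for the 10 naive genes, 9.88, 7.70 and 7.12 for the network genes and 11.5, 15.4 and 9.18 for the primed and lineage genes. Over all protein-coding genes it was 6.27, 6.41 and 5.74.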

How the data were processed

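Per the labels and the study's methods, the authors trimmed reads with Trim Galore 0.6.7, aligned them with Bowtie2 2.5.0 to mm10 with strain variants masked, handled alignments with SAMtools 1.10 and called narrow peaks per library with MACS2 2.2.7.1 at default settings. The 3 deposited lists give, for each peak, a fold enrichment at the summit (a ratio over control), −log10 of the p-value and of the q-value, and a display score. No read totals are given with the lists, so depth is unknown. Peaks in repeats depend on how reads that map to many places were treated, which is not given in the sources used here.

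Summits were assigned to GENCODE M21 genes (mm10) on chromosomes 1 to 19 and X with Python 3.11.15, pandas 2.3.3 and scipy 1.17.1. Fold enrichment was ranked within each list, ties given their mean rank. Sequences came from the RefSeq copy of GRCm38. Coordinates are 1-based. The counting, overlap, rank and string steps were checked on simulated peaks. No test was made, because each list is 1 library. Peaks named come from the promoter sites, the sites of all 3 lists and the top distal peak of each list. Not every promoter site is named singly. Other peaks were chosen after their values were seen, as were the printed sequences. The genes and gene lists were chosen with earlier results of these data known. Alternatives changed the q-value minimum, window, promoter limit, TSS set, overlap rule and ranking column. The display score and −log10 p-value were not used.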

Additional observations from a re-analysis of the deposited data

How the results depend on the processing

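Each list is 1 library, so all values describe these libraries. Over the 10 genes, 36.4% of REX1 peaks overlapped RNF12 WT and 31.8% the mutant form, 59.8% and 61.0% of RNF12 WT peaks overlapped REX1 and the mutant form, and 52.6% and 53.9% of mutant peaks overlapped REX1 and RNF12 WT. The median percentiles were 54.0, 51.4 and 49.5. Of 180 alternative values for these results, the counts and the string shares, 138 moved by less than the counting interval or, for counts, by less than 1.5 times. With −log10 q of at least 5, RNF12 WT had 42 peaks and 20 distal peaks, REX1 with RNF12 WT fell to 24.4%, and the mutant form overlapped REX1 and RNF12 WT in 37.7% each. Among the top 20000 peaks of each list by −log10 q, 40 REX1, 15 RNF12 WT and 9 mutant peaks remained, of which 26, 9 and 2 were distal, and 5, 3 and 4 of the 10 genes had a promoter peak, against 35.3%, 40.4% and 29.2% of all genes. The overlaps there were 17.5% and 12.5% for REX1 with RNF12 WT and the mutant form, 46.7% and 13.3% for RNF12 WT with REX1 and the mutant form, and 22.2% for the mutant form with RNF12 WT, and the median percentiles of REX1 and the mutant form were 35.9 and 40.1. These settings drop the weaker peaks by construction. A window of 5 kb left 21 RNF12 WT and 22 mutant distal peaks and gave 73.2% for RNF12 WT with the mutant form, and REX1 met 71.4% of distal and 69.7% of promoter RNF12 WT peaks and 63.6% and 64.3% of mutant peaks. A window of 50 kb gave 140, 70 and 63 distal peaks, and a distal limit of 3 kb left 21 and 17 in the 2 RNF12 lists. With an overlap of 50% of both peaks, the shares in the order given first were 17.8%, 16.3%, 28.0%, 32.9%, 27.6% and 35.5%. With summits within 100 bp they were 25.6%, 21.7%, 41.5%, 37.8%, 36.8% and 40.8%. The overlap of distal RNF12 peaks with REX1 stayed above the share over all genes under the 5 settings of q-value, top 20000 and overlap rule. The exception is that given above for the interval of RNF12 WT. In the top 20000 this rests on 4 of 9 RNF12 WT and 2 of 2 mutant peaks. For the other windows and the distal limit of 3 kb no share over all genes was computed. Chosen after seeing the data, leaving out *Esrrb* raised REX1 with RNF12 WT to 46.3%, and keeping only summits whose 32-base word occurs once, or the 5′ end as the only TSS, moved none of these results past its limit. No paired analysis was possible because each group is 1 library.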
